A study of Homo sapiens with 43 samples.

Results

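The miR-17-92 cluster and its paralog clusters are 3 groups of microRNA hairpins, and the values described here are the protein-bound peaks that fell on them. The clusters are MIR17HG, the host transcript of miR-17-92 (hg19 chr13:92000074-92006833, plus strand), the miR-106b-25 cluster with MIR106B, MIR93 and MIR25 (chr7:99691083-99691797, minus strand), and the miR-106a-363 cluster with MIR106A and MIR363 (chrX:133303308-133304408, minus strand). A peak was a member when it overlapped one of these loci by at least 1 nt on the same strand. Of 1430241 called peaks in 25 libraries, 272 were members, with 243 on MIR17HG, 28 on miR-106b-25 and 1 on miR-106a-363. The loci were selected on the measured DGCR8 results of these libraries, so the counts and folds on them are a description and were not tested.

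MicroRNAs are cut from long primary transcripts in the nucleus by the Microprocessor, in which DGCR8 binds the hairpin and DROSHA cuts its base. The released hairpin is exported and cut again by DICER1, and 1 strand is loaded into an Argonaute protein, where the bases called the seed select target messages. The miR-17-92 cluster is known as a growth-promoting cluster that is amplified in some lymphomas, and its 2 paralog clusters encode microRNAs of the same seed families. The miR-106b-25 hairpins lie in an intron of MCM7, a subunit of the replicative helicase.

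The series measured protein-bound RNA by eCLIP in HEK293T, an established line derived from human embryonic kidney. In this assay ultraviolet light (254 nm, 400 mJ/cm2 for all samples) links proteins to RNA, and the protein is immunoprecipitated. The RNA recovered from a 75 kDa gel region above the protein is sequenced beside a size-matched input. The 6 tagged libraries came from cells whose own gene carried an integrated tag, namely DGCR8 FLAG, FMR1 FLAG, RBFOX2 V5, LIN28 V5, HNRNPC V5 isoform 1 and HNRNPC V5 isoform 2. The 5 wild-type libraries used antibodies against DGCR8, FMR1, RBFOX2, LIN28 and HNRNPC in untagged cells. Another 14 libraries, labelled FLAG-only or V5-only, covered 7 overlapping gel ranges from 25-100 to 175-250 kDa with each tag antibody. Each RNA-binding protein (RBP) and tag state had 1 library, so no replicate error can be given for any of them, and no read depth is known. The labels do not say whether a tagged line was 1 clone.

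The microRNAs of the 3 clusters fall into 4 seed families, and the sequences are shown because reads from members that share bases cannot always be assigned to 1 locus. Sequences are from RefSeq (GRCh38.p14), 5′ to 3′, with the seed, bases 2 to 8, in capitals. The seed AAAGUGC is carried by 6 mature microRNAs, 4 of them from hairpins on which DGCR8 peaks were found:
miR-17-5p: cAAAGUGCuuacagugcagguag
miR-20a-5p: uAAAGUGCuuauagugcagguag
miR-106b-5p: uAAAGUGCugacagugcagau
miR-93-5p: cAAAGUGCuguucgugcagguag
The seed AUUGCAC is carried by 3 mature microRNAs from 4 hairpins:
miR-92a-3p: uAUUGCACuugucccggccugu
miR-25-3p: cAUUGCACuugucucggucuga
miR-363-3p: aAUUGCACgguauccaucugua
The seed GUGCAAA is carried by miR-19a-3p and by miR-19b-3p, which 2 hairpins encode, MIR19B1 on chromosome 13 and MIR19B2 on chromosome X:
miR-19a-3p: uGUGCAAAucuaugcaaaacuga
miR-19b-3p: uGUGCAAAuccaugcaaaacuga
The seed AAGGUGC is carried by miR-18a-5p and miR-18b-5p:
miR-18a-5p: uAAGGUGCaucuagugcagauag

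The MIR92A1 hairpin is shown whole because it held the highest peak of both DGCR8 libraries, beside MIR92A2 of the X-linked cluster, which encodes the same miR-92a-3p. Capitals mark the mature arms:
MIR92A1: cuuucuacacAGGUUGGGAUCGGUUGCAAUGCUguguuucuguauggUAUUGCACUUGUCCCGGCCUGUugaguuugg
MIR92A2: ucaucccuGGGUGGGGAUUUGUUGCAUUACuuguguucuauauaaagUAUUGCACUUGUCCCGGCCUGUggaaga
The 2 hairpins share 23 identical bases in a row, positions 47 to 69 of each, which hold the 3′ arm. A read confined to those bases cannot be assigned to chromosome 13 or X.

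DGCR8, the RNA-binding subunit of the Microprocessor, gave the strongest peaks on these loci. A peak was called significant where the authors' log2 fold over input reached 3, which is 8-fold, and their −log10 p reached 3. On the 3 loci, 37 of 37 called peaks were significant in DGCR8 FLAG and 48 of 49 in DGCR8 wild type. Over all called peaks, 1.78% were significant in DGCR8 FLAG and 4.16% in DGCR8 wild type. Because these counts chose the loci, nothing is read from that contrast. By fold, members were 7 of the top 10 peaks in DGCR8 FLAG and 6 of the top 10 in DGCR8 wild type. They were 25 of the top 50 in DGCR8 FLAG and 18 of the top 50 in DGCR8 wild type. Of the top 100, they were 33 in DGCR8 FLAG and 25 in DGCR8 wild type. Neighbouring peaks on the same hairpin count separately. The loci were selected on the results of these same libraries, so nothing is read from these ranks either.

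On MIR17HG, DGCR8 FLAG had 30 peaks, 6.56% of its 457 significant peaks, with log2 folds between 5.48 and 8.81 and a median of 6.86. DGCR8 wild type had 33, 2.40% of its 1375 significant peaks, between 3.88 and 11.74 with a median of 7.01. When significant peaks less than 1000 nt apart were joined into runs, MIR17HG in DGCR8 FLAG held the run with the most peaks of 261, with 30 over 2189 nt, and the next run held 12. In DGCR8 wild type it ranked second by number of peaks among 646 runs, with 30 over 1880 nt, and the first held 31. Another 3 wild-type peaks lay far upstream in the 5′ part of the transcript.

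**Figure D1:**
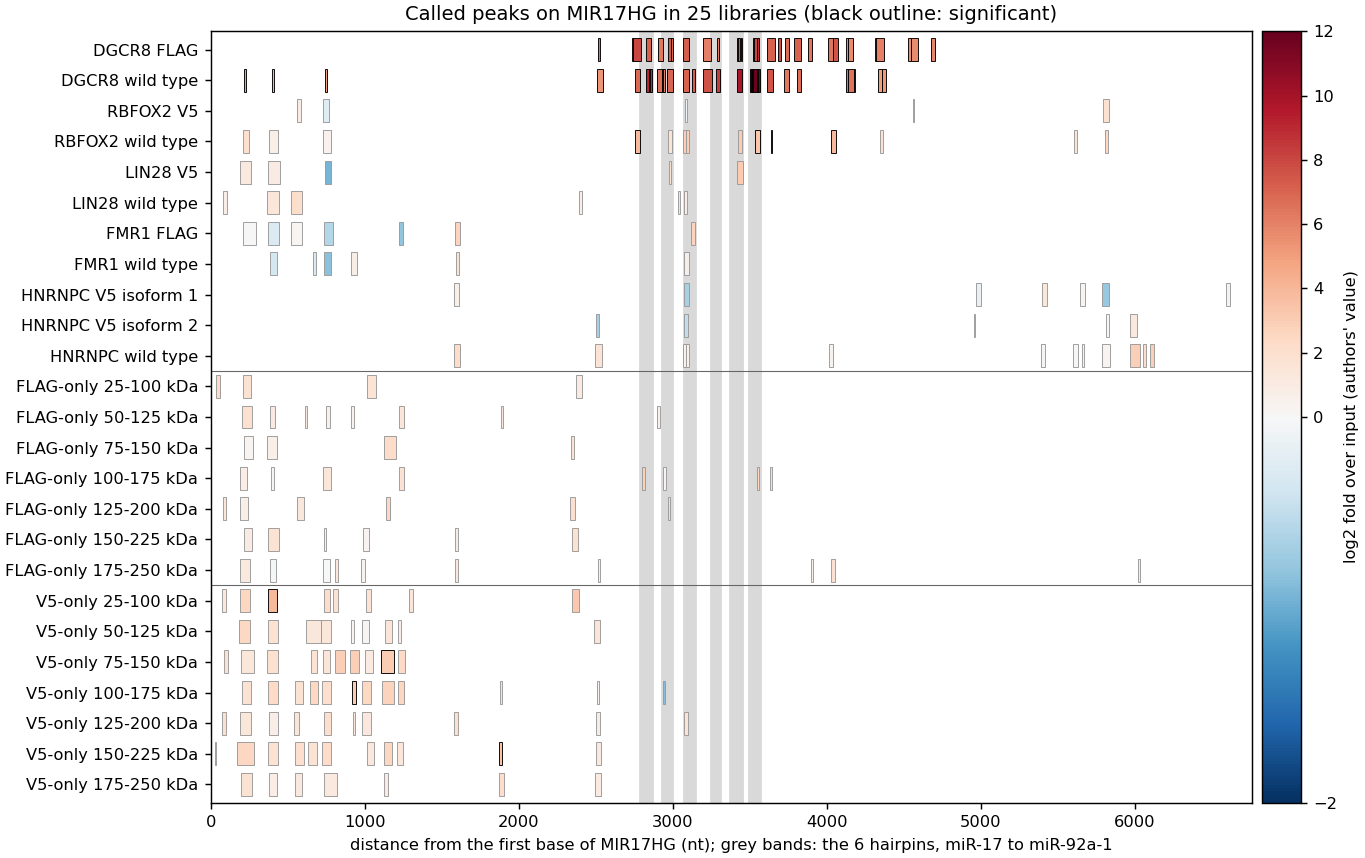
Called peaks on MIR17HG by library (rows), placed by distance in nt from its first base and coloured by the authors' log2 fold over input, with significant peaks outlined in black and the 6 hairpins in grey. Peaks shorter than 12 nt are drawn 12 nt wide. The DGCR8 peaks run from the hairpins into the sequence after them, while most peaks of the FLAG-only and V5-only libraries lie before the first hairpin.

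On miR-106b-25, DGCR8 FLAG had 7 peaks, all significant, with log2 folds between 3.63 and 5.92. DGCR8 wild type had 15, all significant, between 5.95 and 9.68. Every FLAG value was below every wild-type value, narrowly, with 5.92 as the highest in FLAG and 5.95 as the lowest in wild type. FLAG was also lower at 159 of the 184 significant FLAG peaks outside the loci that a significant wild-type peak overlapped. The highest FLAG peak lay on MIR93 and ranked 47 by fold among that library's called peaks. The highest wild-type peak lay on MIR106B and ranked 10. On miR-106a-363 no peak was called in DGCR8 FLAG, and DGCR8 wild type had the single member, at chrX:133303573-133303591 with a log2 fold of 3.65 and a −log10 p of 2.06, short of the threshold. That peak covered positions 52 to 70 of MIR92A2, and all but its last base lie in the 23 bases shared with MIR92A1.

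Hairpins were placed within each locus by distance from its 5′ end, since the reference annotation is of another build. The MIR17HG gene model of GENCODE has the length of the hg19 locus, 6760 nt, and the other loci were taken as the hairpins' span with 100 nt on each side, which gives their lengths exactly. This placement assumes no insertion or deletion between the builds, and the letters under a peak were not read.

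All 9 hairpins of MIR17HG and miR-106b-25 carried a significant peak in both DGCR8 libraries. MIR92A1, which encodes miR-92a, was first in both lists. Its highest log2 fold was 8.81 in DGCR8 FLAG, at chr13:92003623-92003635 over hairpin positions 56 to 68 in the 3′ arm, and 11.74 in DGCR8 wild type, at chr13:92003597-92003616 over positions 30 to 49 across the loop. The FLAG peak lies wholly within the 23 bases shared with MIR92A2, so reads confined to it cannot be assigned to MIR92A1 alone. Both peaks stood at a −log10 p of 15.7, a value that recurred at 19 of the 37 significant FLAG members and 26 of the 48 wild-type ones. A further 8 FLAG members and 19 wild-type members stood at the maximum of 400, and why values pile up at 15.7 is not known, so p was not used to order the peaks.

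After MIR92A1, the hairpins did not rank alike in the 2 libraries. MIR17, the first hairpin of the transcript, reached 8.06 in DGCR8 FLAG and 9.11 in DGCR8 wild type. The FLAG peak there ran from position −41 to position 10, where position 1 is the hairpin's first base, so most of it lay upstream. The FLAG peak that overlapped the wild-type peak of 9.11 had a log2 fold of 7.10. MIR18A reached 7.42 in DGCR8 FLAG and 7.01 in DGCR8 wild type, and was the only hairpin higher in FLAG. MIR19A was level, at 7.28 in DGCR8 FLAG and 7.29 in DGCR8 wild type. MIR20A reached 6.26 in DGCR8 FLAG and 8.33 in DGCR8 wild type, and MIR19B1 reached 7.23 in DGCR8 FLAG and 9.78 in DGCR8 wild type. The 3 hairpins of miR-106b-25 differed most. MIR106B reached 5.10 in DGCR8 FLAG and 9.68 in DGCR8 wild type, MIR93 reached 5.92 in DGCR8 FLAG and 9.29 in DGCR8 wild type, and MIR25 reached 5.38 in DGCR8 FLAG and 8.94 in DGCR8 wild type. In FLAG these 3 were the lowest of the 9, whereas in wild type MIR106B and MIR93 ranked just below MIR19B1.

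**Figure D2:**
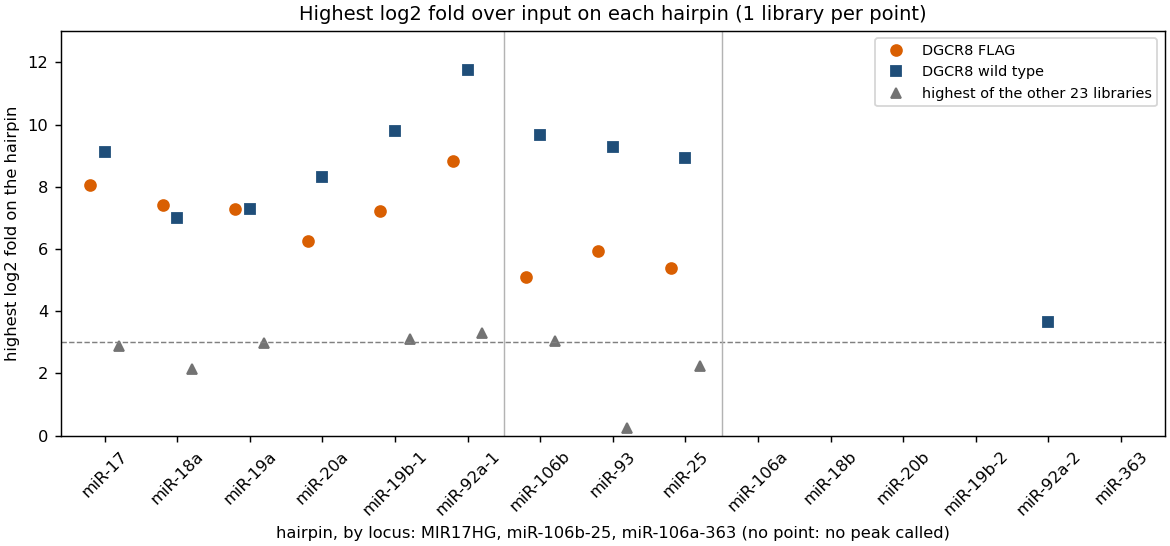
Highest log2 fold over input (y axis) of any peak assigned to each of the 15 hairpins (x axis, in transcript order within each locus), with 1 point each for DGCR8 FLAG, DGCR8 wild type and the highest of the other 23 libraries. DGCR8 FLAG lies below DGCR8 wild type on 8 of 9 hairpins, and only MIR92A2 has a point on the X-linked locus. The DGCR8 FLAG point of MIR17 is a peak that lies mostly upstream of the hairpin.

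The difference in highest log2 fold, FLAG minus wild type, had a median of −1.56 over the 6 hairpins of MIR17HG and −3.56 over the 3 of miR-106b-25. For MIR17 this difference, −1.05, sets the mostly upstream FLAG peak against a wild-type peak in the 3′ arm. Against the FLAG peak that overlapped that wild-type peak, it was −2.01. Each fold is relative to the library's own input, and with 1 library per state the spread between repeats is unknown. Taken over significant FLAG peaks that a significant wild-type peak overlapped, the median difference was −0.65 at 20 peaks on MIR17HG, −3.56 at 7 on miR-106b-25 and −1.67 at 184 outside the loci. The differences within MIR17HG were also described by the position of the peak. After the last hairpin, 7 shared wild-type peaks had a median difference of 0.37, with FLAG higher at 4. On the hairpins, 13 shared wild-type peaks had a median of −2.01, with FLAG higher at 3, all on MIR18A or MIR19A. Before the first hairpin the median was 1.14, with FLAG higher at 2 of 2, and at the 1 peak between hairpins the difference was −0.22. All wild-type peaks on the hairpins had a median log2 fold of 8.80, against 6.38 after them, and position was not separated from wild-type fold. A FLAG peak overlapped by several wild-type peaks counts once for each of them, so the counts by position are not of separate sites. On miR-106b-25, FLAG was lower at all 13 shared wild-type peaks, which overlapped 7 FLAG peaks. The median differences were −3.36 at the 9 on hairpins, −1.43 at the 2 between them and −0.97 at the 2 after them. FLAG was also lower at 196 of 224 shared wild-type peaks outside the loci, and at 14 of 23 on MIR17HG.

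The overlap was larger on these loci than in the rest of the lists, which is not independent of how the loci were chosen. On MIR17HG, 20 of 30 significant FLAG peaks (66.7%) overlapped a significant wild-type peak, and 23 of 33 wild-type peaks (69.7%) overlapped a FLAG peak. On miR-106b-25 the shares were 7 of 7 FLAG peaks and 13 of 15 wild-type peaks (86.7%). In the rest they were 184 of 420 FLAG peaks (43.8%) and 224 of 1327 wild-type peaks (16.9%).

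The DGCR8 peaks covered the hairpins more densely than the rest of MIR17HG. The 6 hairpins hold 473 nt, 7.0% of the locus. DGCR8 FLAG peaks covered 39.7% of these bases, 26.4% of the 314 nt between hairpins, 13.8% of the 3188 nt after the last one and 2.15% of the 2785 nt before the first. DGCR8 wild-type peaks covered 53.9% of the hairpin bases, 28.0% of those between, 6.52% of those after and 3.81% of those before. Both libraries thus had the same order of segments. They differed in the number of peaks after the last hairpin, 14 in DGCR8 FLAG and 8 in DGCR8 wild type. Those FLAG peaks ran as far as nt 4701 of the locus, with log2 folds between 5.48 and 7.59. In the GENCODE models, 1 MIR17HG transcript has an exon from nt 1879 to nt 4583 that holds the hairpins, and a shorter one has its last exon from nt 2337 to nt 4277. Another has exons ending at nt 2407 and resuming at nt 6114, so that the hairpins and the downstream peaks lie in its intron.

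**Figure D3:**
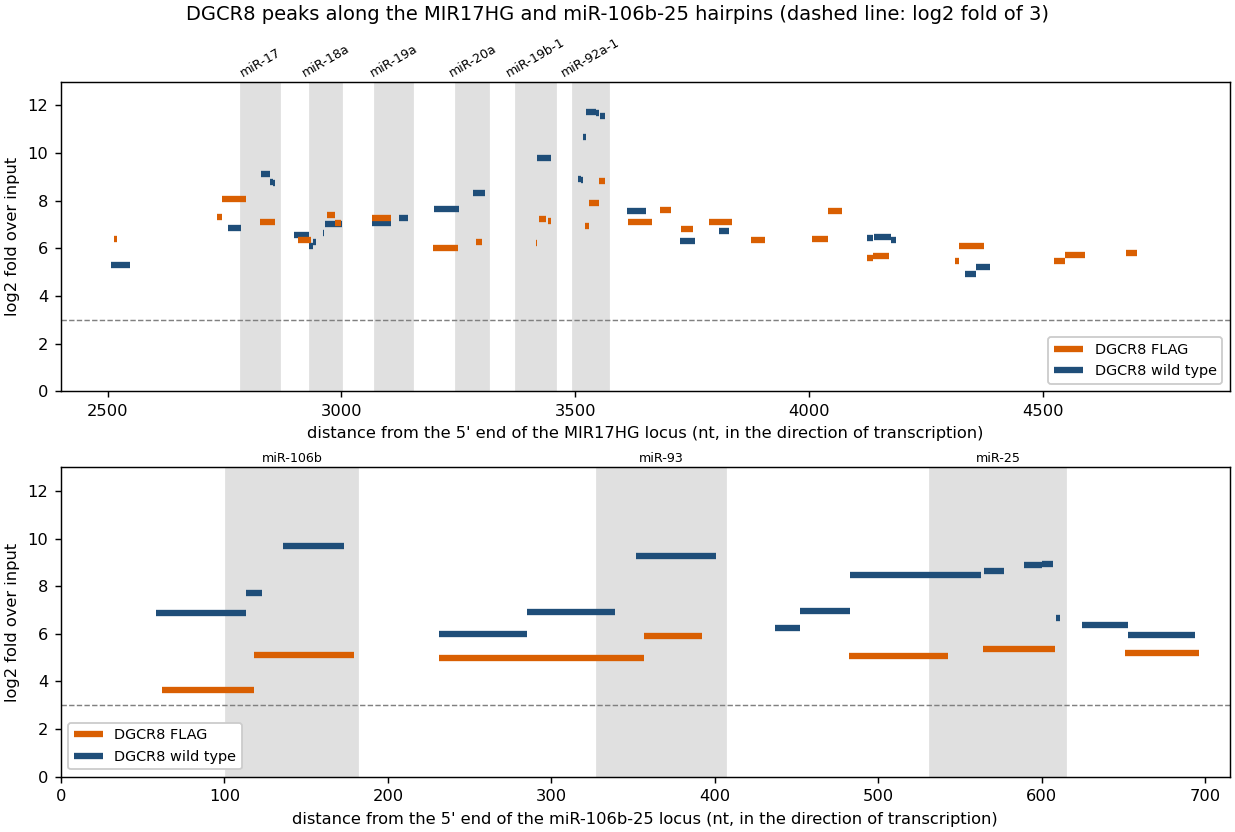
DGCR8 FLAG and DGCR8 wild-type peaks along the hairpin part of MIR17HG (top) and along miR-106b-25 (bottom), each drawn from its first to its last base at its log2 fold over input (y axis), against distance in nt from the 5′ end of the locus. Grey bands are hairpins. On MIR17HG both libraries peak at miR-92a-1 (8.81 in FLAG, 11.74 in wild type). On miR-106b-25 the highest FLAG peak (5.92) lies just below the lowest wild-type peak (5.95).

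Within the hairpins, the midpoint of the highest peak lay most often in the 3′ arm. The midpoint does not give the extent of a peak, and some span both arms, as at positions 25 to 73 of MIR93 in DGCR8 wild type. In DGCR8 FLAG the midpoint of the best peak lay in the 3′ arm of MIR18A, MIR20A, MIR19B1, MIR92A1 and MIR25. It lay in the loop of MIR106B and MIR93, in the 5′ arm of MIR19A, and upstream of the first base of MIR17. In DGCR8 wild type it lay in the 3′ arm of MIR17, MIR18A, MIR19A, MIR20A, MIR19B1, MIR106B and MIR25, and in the loop of MIR92A1 and MIR93. The MIR106B hairpin, which had the largest difference in fold between the 2 DGCR8 libraries, is shown whole:
MIR106B: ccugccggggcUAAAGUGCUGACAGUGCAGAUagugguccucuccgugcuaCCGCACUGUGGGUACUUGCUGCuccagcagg
Capitals again mark the mature arms. Its best FLAG peak covered hairpin positions 18 to 78, and its best wild-type peak positions 36 to 72. Among 13 of the 15 hairpins with a RefSeq sequence, the letters UGU were present in 13, against 79.2% of all 1560 human hairpins compared. UGU is known from apical loops, but it was sought anywhere in the hairpin, and in MIR106B it lies only in the 3′ arm. GGAG, a motif bound by LIN28, was present in 2, MIR25 and MIR363, against 43.4% of all. GCAUG, the RBFOX2 motif, was present in 0, against 7.24%, and UUUUU, the HNRNPC motif, in 1, MIR106A, against 8.97%. These searches covered the transcribed strand of the hairpins only, and a match is not a binding site.

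RBFOX2, a splicing regulator, was the only other RBP with significant peaks on the loci. RBFOX2 V5 had 0 of 5 members significant, where 4.0% of all its called peaks were, and its highest log2 fold was 1.96. RBFOX2 wild type had 4 of 16, which is 25.0% of its members against 7.03% of all its peaks. Its 4 significant peaks had log2 folds between 3.31 and 4.16, and none was among its 100 highest. The first, at chr13:92002826-92002856 (3.87), ended at nt 2783 of the locus, just before MIR17 at nt 2786. The second, at chr13:92003609-92003636 (3.31), covered positions 42 to 69 of MIR92A1. Positions 47 to 69 are shared with MIR92A2, so reads confined to them cannot be assigned to MIR92A1 alone. The others, at chr13:92003708-92003712 (4.16) and chr13:92004098-92004131 (3.87), lay after the last hairpin. All 4 overlapped a DGCR8 FLAG peak and 3 overlapped a DGCR8 wild-type peak, beside 11 and 13 of all 16 RBFOX2 wild-type members. Just under the threshold were 2 adjoining peaks on MIR19A with a log2 fold of 2.97.

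LIN28, which binds let-7 precursors, had no significant member. LIN28 V5 had 5 members, all on MIR17HG, and LIN28 wild type had 6, where 10.6% of all called peaks were significant in LIN28 V5 and 4.73% in LIN28 wild type. The highest LIN28 V5 peak, with a log2 fold of 3.10 and a −log10 p of 1.91, covered the 3′ arm of MIR19B1. LIN28 wild type had its highest, 2.10, before the hairpins.

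FMR1, the fragile X protein that binds messages on ribosomes, had 8 members in FMR1 FLAG and 7 in FMR1 wild type, none significant, where 17.2% of all peaks were significant in FMR1 FLAG and 5.23% in FMR1 wild type. FMR1 FLAG reached 2.80 on MIR17HG, and FMR1 wild type reached 1.69. One peak straddled the 5′ edge of the miR-106b-25 locus in both libraries, with a log2 fold of 2.30 in FMR1 FLAG and 0.86 in FMR1 wild type. It entered the locus by at most 3 nt and lay outside the hairpins.

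HNRNPC, which binds uridine-rich introns, had 7 members in the library of V5-tagged isoform 1, 5 in that of V5-tagged isoform 2 and 12 in HNRNPC wild type, all on MIR17HG and none significant. Over all peaks, 0.760% were significant for isoform 1, 1.97% for isoform 2 and 2.15% in HNRNPC wild type. The highest log2 folds were 1.43 for isoform 1, 1.24 for isoform 2 and 2.98 in HNRNPC wild type, and the wild-type value, at nt 5972 to 6034 of MIR17HG, was the nearest by fold to the threshold among the peaks that missed it by fold alone. The part after the last hairpin, 47.2% of the locus, held 5 of 7 HNRNPC peaks for isoform 1, 3 of 5 for isoform 2 and 8 of 12 in HNRNPC wild type. The median log2 folds of those peaks were near input, at −0.08 for isoform 1, 0.34 for isoform 2 and 0.40 in wild type. Among all members, 3 of 7 for isoform 1, 3 of 5 for isoform 2 and 12 of 12 in wild type had a positive fold.

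The stretches of MIR17HG called in the most libraries lay in its 5′ part, and most of those libraries were FLAG-only or V5-only. There were 5 stretches called in at least 10 of the 25 libraries. The most shared were nt 194 to 257 in 18 libraries, nt 373 to 433 in 18 and nt 732 to 777 in 17, all before the first hairpin. The first of these was called in all 7 FLAG-only and all 7 V5-only libraries, with log2 folds no higher than 2.60 outside DGCR8. Of the RBP libraries, 4 had the first stretch, 6 the second and 6 the third, with DGCR8 wild type among them each time. Called peaks include some with a fold below input. Outside DGCR8, folds were positive in 17 of 17 libraries at the first stretch. They were positive in 14 of 17 at the second and 11 of 16 at the third. The 3 upstream DGCR8 wild-type peaks, with log2 folds of 4.84, 3.88 and 4.94, lay within these stretches. A further stretch, nt 3078 to 3087, lay in MIR19A, and was called in 9 RBP libraries, 0 FLAG-only libraries and 1 V5-only library. It had the most RBP libraries of the 5 stretches, with both DGCR8 libraries among the 9. Of the 8 libraries other than DGCR8 with a peak there, 5 had a positive fold. Outside DGCR8, the highest log2 fold there was 2.97, in RBFOX2 wild type, and MIR20A was the only hairpin of MIR17HG with no peak in any of the other 23 libraries.

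The tag-only libraries, in which the tag antibodies were applied across gel ranges, show what the antibodies recover on the loci without a named RBP. FLAG-only had 47 members in 7 libraries, of which 0 were significant, against 7.76% of all FLAG-only peaks. V5-only had 68, of which 4 (5.88%) were significant, against 3.14% of all V5-only peaks. Of the members on MIR17HG, 37 of 46 in FLAG-only and 65 of 67 in V5-only lay before the first hairpin, which makes up 41.2% of the locus. The 4 significant V5-only peaks all lay there, with log2 folds of 3.85, 3.0, 3.04 and 3.49 in the 25-100, 75-150, 100-175 and 150-225 kDa ranges. None of the 4 overlapped a DGCR8 FLAG peak and 1 overlapped a DGCR8 wild-type peak, beside 7 and 29 of all 68 V5-only members.

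Called peaks on the 3 loci per 10000 called peaks of the library numbered 0.558, 1.18, 0.764, 1.47, 1.19, 1.08 and 1.76 in FLAG-only, from the lowest gel range to the highest. They numbered 1.16, 1.36, 1.86, 2.10, 1.75, 1.78 and 1.45 in V5-only. FLAG-only was below V5-only in 6 of 7 ranges, and above it at 175-250 kDa. The means were 1.14 ± 0.405 in FLAG-only and 1.64 ± 0.325 in V5-only (SD, n = 7), and the paired difference, FLAG-only minus V5-only, was −0.493 ± 0.444 (SD, n = 7 ranges; two-sided exact sign-flip permutation test, p = 0.0469, smallest possible 0.0156). Dropping any range except 175-250 kDa lost this call, with p up to 0.0938 and a smallest possible p of 0.0312. Neighbouring ranges share 50 kDa of gel, and the FLAG-only and V5-only libraries of a range have 1 labelled input between them, so the pairs are not independent repeats.

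**Figure D4:**
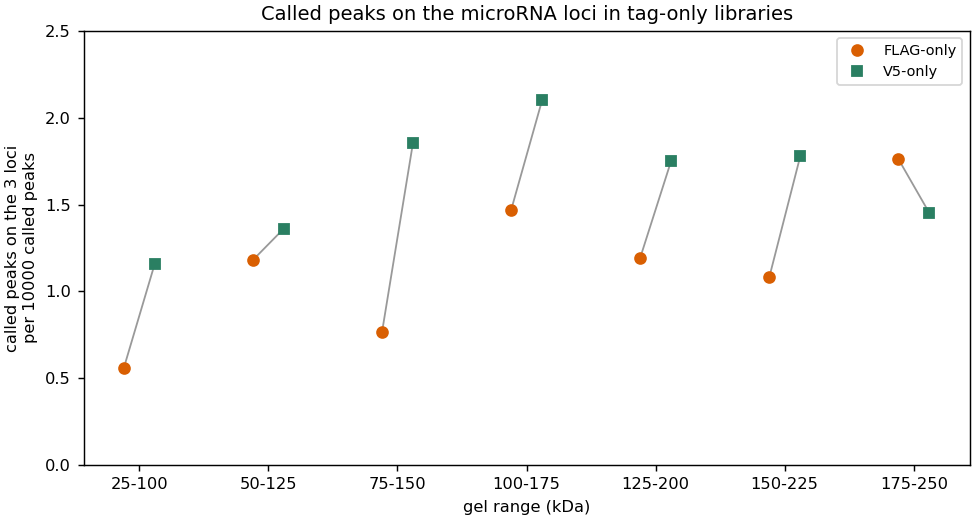
Called peaks on the 3 loci per 10000 called peaks of the library (y axis) in FLAG-only and V5-only libraries at each gel range in kDa (x axis), with a line joining the 2 libraries of a range. FLAG-only lies below V5-only in 6 of 7 ranges (means 1.14 and 1.64).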

How the data were processed

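The data are peak lists of 25 eCLIP libraries. 18 input samples entered only through the authors' normalisation. Each deposited list gives position, strand, the authors' −log10 p and the authors' log2 fold over size-matched input, without a header. Peaks were called per library. Positions are hg19, and cutadapt, STAR, GATK, Picard and SAMtools are named, per the submitters' processing notes. No caller is named there. Folds are values of the authors' peaks, so a locus cut into more peaks has more members, and depth in reads is unknown.

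Members were found by same-strand overlap of at least 1 nt, and peaks were significant at a −log10 p of 3 or more and a log2 fold of 3 or more. A peak was assigned to the hairpin it overlapped most, even by a few bases, and placed by its midpoint. All 15 hairpins were to be named whatever their values. Only the tag-only comparison was tested, by exact sign flips over the 7 ranges paired by their labelled range. The statistic was tested on simulated data. Python 3.11.15, numpy 2.4.6, pandas 2.3.3 and scipy 1.17.1 were used. The members, lists and tests were chosen with earlier results of these data known. Microprocessor genes and MCM7, and motifs beyond the hairpin, were not analysed here, since no hg19 annotation was used. Alternatives were another p, fold or overlap minimum, a length-weighted mean fold, called nucleotides in place of peaks, and leaving out each gel range.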

Additional observations from a re-analysis of the deposited data

Results flagged for a closer look

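The direction of the difference in highest log2 fold on MIR17HG, tagged minus wild type, was not the same for all RBPs, and it was not tested, with 1 library per state. It was −2.93 for DGCR8, −2.20 for RBFOX2, −1.55 for HNRNPC isoform 1 and −1.73 for HNRNPC isoform 2, so these tagged libraries were lower. It was 1.11 for FMR1 and 1.00 for LIN28, so these tagged libraries were higher. By the length-weighted mean log2 fold over called positions, the LIN28 direction turned, with 1.09 in LIN28 V5 and 1.47 in LIN28 wild type, and FMR1 had 0.26 in FMR1 FLAG and 0.12 in FMR1 wild type. The direction of the other RBPs was the same by that measure. The share of called peaks that were significant was higher in FMR1 FLAG (17.2%) than in FMR1 wild type (5.23%) and in LIN28 V5 (10.6%) than in LIN28 wild type (4.73%), and lower in the tagged than in the wild-type libraries of DGCR8, RBFOX2 and HNRNPC. The part of these library-wide values in the differences was not tested. Of 9 sets of 7 gel-range values examined, 0 had a value that stood apart from the others.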

How the results depend on the processing

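The DGCR8 counts of significant peaks on MIR17HG and miR-106b-25, in both libraries, stayed within 1.5 times under every minimum of p, fold and overlap tried. The looser fold could not change them, since every DGCR8 peak called on these 2 loci was already significant. With a −log10 p of at least 5, RBFOX2 wild type kept a count of 2 on MIR17HG and V5-only of 1. With a log2 fold of at least 2, the counts on MIR17HG were 1 in HNRNPC wild type, 7 in RBFOX2 wild type, 1 in LIN28 wild type, 1 in FLAG-only and 20 in V5-only, and FMR1 FLAG had 1 on miR-106b-25. With at least 50% of a peak inside the locus no count moved by more than 1.5 times. The length-weighted mean log2 fold, lower by construction than the highest, was 6.74 in DGCR8 FLAG and 7.18 in DGCR8 wild type on MIR17HG, and 4.98 in DGCR8 FLAG and 7.52 in DGCR8 wild type on miR-106b-25. The FLAG-only minus V5-only difference ran from −0.628 to −0.394 when each gel range was left out, and 6 of 7 omissions lost the call, with p from 0.0312 to 0.0938. In called nucleotides per 1000000 it was −113 (p = 0.0156, exact permutation, the smallest possible). Gel ranges were not left out for that measure, and the overlapping ranges are not independent repeats under either measure. No paired analysis by replicate number was possible because each RBP and tag state had 1 library. With 1 library per state and unknown depth, no error can be given for a DGCR8 fold.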
